A study of Triticum aestivum with 12 samples.

Results

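The drought response of wheat leaves sprayed with LRM was read from 6 of the 12 libraries in the series, 3 from droughted and 3 from fully irrigated plants. All were polyA RNA from leaves of wild-type bread wheat, Triticum aestivum, variety Chinese Spring L42. The members were chosen by label: drought_LRM plants got 30 ml of water at each of 2 weekly waterings and irrigated_LRM plants got 180 ml, in pots whose maximum retention was 180 ml. Both groups were sprayed on the foliage with LRM, a commercial biostimulant made from microalgae, diluted to 0.5% and applied the day after planting and every 14 days from then on. The drought_water and irrigated_water groups, with 3 libraries each, had the same irrigation and a water spray. The labels do not give the age of the plants, the water status of the leaves or whether each library came from its own plant or pot, and the spread that the p-values rest on may therefore be technical in part.

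Leaves that lose water accumulate abscisic acid, a hormone that closes the stomata and switches on genes for protective proteins such as dehydrins and other late embryogenesis abundant proteins. Carbon fixation slows once the stomata close. Transcripts of photosynthesis genes, which are among the most abundant in a leaf, commonly decline in droughted cereals, as do those of growth genes. Bread wheat carries 3 related genomes, A, B and D, so that most genes exist as near-identical copies on corresponding chromosomes. The identifiers in the files, such as Traes_1BL_22EDF8650, carry the chromosome arm and no gene name, and 0 of them matched the reference gene table. The leaf label could therefore not be set against marker genes, and genes are described below by number, size of change, abundance and chromosome. Reads from a copy on another genome may be included in the count of any gene named, so each is uncertain in that respect.

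Total counts ran from 17541561 to 42569702 in drought_LRM and from 31381925 to 41695671 in irrigated_LRM. The lowest total of the series was that of drought_LRM replicate 2. Among the 6 LRM libraries the first principal component of log2 CPM (read counts scaled to the depth of the library) held 48.2% of the variance and separated drought from irrigation. The second held 19.2% and lay mainly among the drought_LRM libraries, with replicate 2 at one end and replicate 1 at the other. Spearman correlations were 0.957 to 0.977 between libraries of the same group and 0.924 to 0.939 between libraries of different groups. Each pair of replicates differed by more than counting noise (chi-square of at least 5.23 per degree of freedom), so none was counted as a second sequencing of the same library. This value cannot tell whether the libraries came from separate plants.

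Drought was accompanied by higher levels of 4949 genes and lower levels of 4921 genes in LRM-sprayed leaves. These are 8.65% and 8.6% of the 57226 genes tested, and 17.2% together, at a Benjamini-Hochberg adjusted p below 0.05 by the quasi-likelihood test of edgeR. In 98.1% of the called genes, or 9683, the 3 drought_LRM libraries all lay outside the range of the 3 irrigated_LRM libraries in CPM scaled by the TMM method. Of all tested genes 32.8% showed such a separation in either direction. Since the calls were made on these libraries, that share follows in large part from the calling. In 4421 of the higher genes the drought_LRM libraries also lay above all 6 irrigated libraries, those of irrigated_water included, as they did in 12.1% of all tested genes. In 4174 of the lower genes they lay below all 6, as in 11.1% of all tested genes. Without drought_LRM replicate 2 edgeR called 4478 genes higher and 3985 lower.

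The even split between directions rests on the scaling. The median log2 change of all genes was -0.0030 with TMM and 0.16 when libraries were scaled by their totals alone, and 6800 genes were then called higher and 2937 lower. With limma on log2(FPKM + 1) the split was 6946 higher and 3090 lower. FPKM here is the authors' value, judged to be scaled for gene length and depth. All changes below are on the TMM scale unless another is named.

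**Figure D1:**
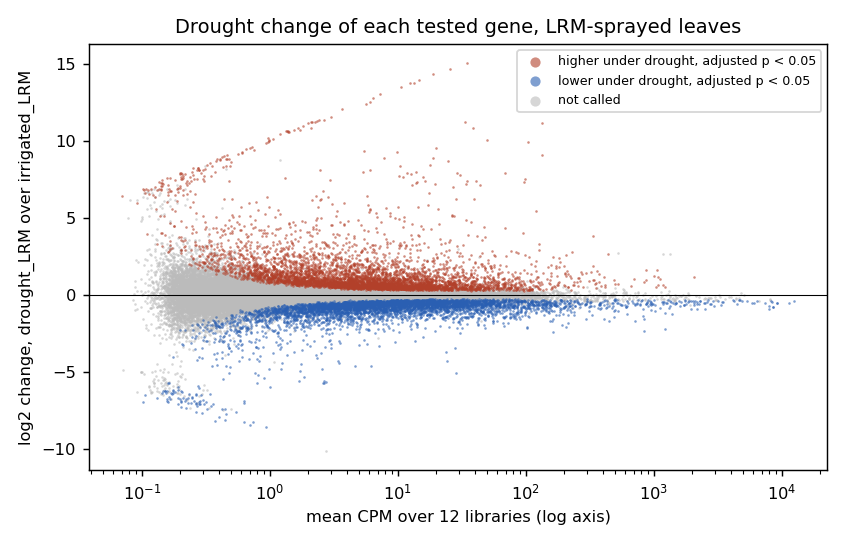
Each point is 1 of 57226 tested genes, with its mean CPM over the 12 libraries on a log axis and its log2 change, drought_LRM over irrigated_LRM, on the vertical axis. Changes over 8-fold number 512 among the 4949 genes called higher and 175 among the 4921 called lower. The oblique band at the upper left holds genes with 0 counts in irrigated_LRM, whose fitted change depends on a small added count.

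Large changes were mostly rises. Of the higher genes 2610 changed by less than 2-fold, 1414 by 2 to 4-fold, 413 by 4 to 8-fold and 512 by more than 8-fold. The lower genes numbered 3374, 1199, 173 and 175 in the same classes. Rises and falls thus stood at 512 against 175 in the top class, while falls were the more numerous under 2-fold. A stricter test, glmTreat of edgeR, asks whether a change exceeds 2-fold and not only whether it differs from 0. It called 1100 genes (1.92% of those tested), 856 higher (1.5%) and 244 lower (0.426%).

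The excess of rises among large changes held under each of the other scalings, filters and omissions tried with glmTreat. The higher genes numbered between 648 and 1041 and the lower genes between 159 and 301. With library totals they were 1024 and 190. The lower count of 159 came without irrigated_LRM replicate 2, and the higher count there was 648. Without drought_LRM replicate 2 the counts were 750 and 186.

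**Figure D2:**
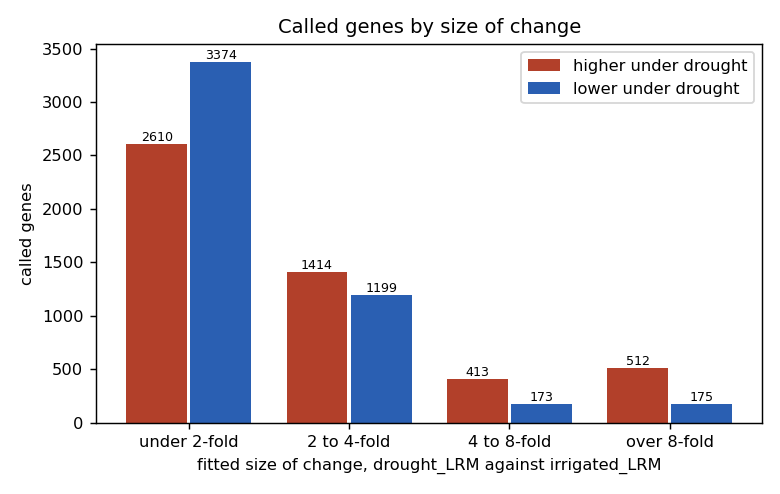
Bars give the number of called genes in each class of fitted change between drought_LRM and irrigated_LRM, higher and lower under drought. Falls outnumber rises under 2-fold, 3374 beside 2610 rises, and rises outnumber falls in each larger class.

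Part of the largest changes were genes counted in 1 group alone. Of the genes called higher, 145 had 0 counts in all 3 irrigated_LRM libraries, and 130 of these were counted in all 3 drought_LRM libraries. Their counts summed over drought_LRM ran from 13 to 11937 with a median of 86, and 30 of them averaged at least 5 CPM there. In the water-sprayed plants 136 of the 145 had counts in drought_water, and 71 had 0 counts in all irrigated_water libraries. The filter on low counts read all 12 libraries, so a gene at 0 in irrigated_LRM was tested only if libraries of other groups had counts. The 3 drought_LRM libraries could suffice, with or without drought_water. Counts in these groups among the 145 therefore follow in part from the filter and the calling. The 145 are those called among 199 tested genes at 0 in irrigated_LRM.

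In the other direction 76 genes called lower had 0 counts in all 3 drought_LRM libraries, out of 163 tested genes at 0 there. Their counts summed over irrigated_LRM ran from 18 to 136 with a median of 41, so all of them were rare transcripts. In drought_water 2 of the 76 had 0 counts in every library, and 40 had counts in all 3. Here too a gene at 0 passed the filter only if libraries of other groups had counts. A count of 0 over a group allows a true level of up to 3 counts at that depth. With groups at 0 set to 3 counts, 505 rises and 170 falls still exceeded 8-fold.

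The direction of change varied with the abundance of the transcript. Among the 959 tested genes with a mean above 100 CPM over the 12 libraries, 375 (39.1%) were called lower and 135 (14.1%) higher, with a median log2 change of -0.28 over all 959. From 20 to 100 CPM 1078 genes (25.2%) fell and 696 (16.3%) rose under TMM, an order that was turned with library totals, where 688 fell and 973 rose. Between 5 and 20 CPM the shares under TMM were nearly equal, at 12.6% lower and 13.1% higher. Under 1 CPM 403 of 17062 genes fell (2.36%) and 650 rose (3.81%).

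The power to call a gene differs over this range, as the median standard error of the log2 change was 0.53 under 1 CPM and 0.12 above 100 CPM. The smallest change called was 0.75 on the log2 scale under 1 CPM and 0.29 above 100 CPM. With library totals the genes above 100 CPM were 301 lower and 181 higher, and rises were the more frequent in every class below 100 CPM. Without drought_LRM replicate 2 the genes above 100 CPM were 309 lower and 125 higher.

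**Figure D3:**
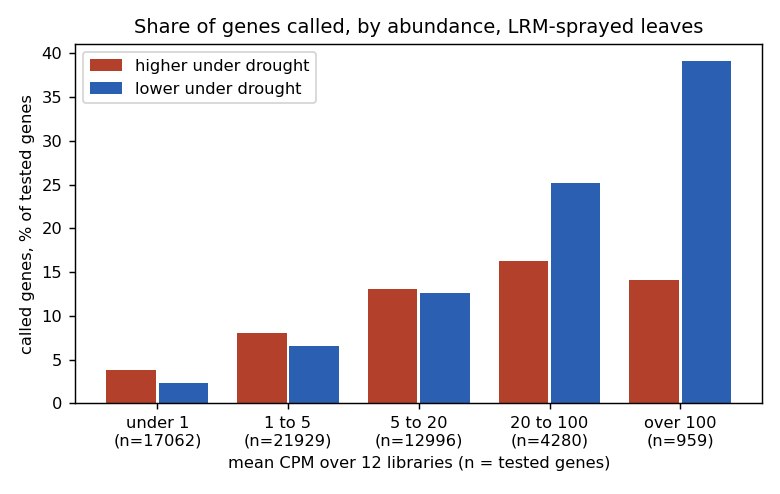
Bars give the percentage of tested genes called higher or lower under drought with LRM, in 5 classes of mean CPM over the 12 libraries, with TMM scaling. The lower share grows with abundance, to 39.1% above 100 CPM, and the higher share is 14.1% there. With library totals falls lead above 100 CPM alone.

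In water-sprayed leaves the class above 100 CPM moved little: the median log2 change of drought_water over irrigated_water was -0.04, with 30 genes called higher and 4 lower. In rarer classes the medians were small under both sprays. They were 0.017 with LRM and 0.018 with water from 1 to 5 CPM, and -0.003 and 0.001 from 5 to 20 CPM. Over all genes tested 475 (0.830%) were called in water-sprayed leaves by the same test.

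The shift was also visible in the share of each library that the called genes took up. The genes called higher held 14.6%, 14.7% and 15.1% of the counts in drought_LRM replicates 1, 2 and 3, against 6.87%, 6.06% and 6.41% in irrigated_LRM. The genes called lower held 33.5%, 31.9% and 32.0% in drought_LRM, against 43.1%, 45.1% and 44.6% in irrigated_LRM. These genes were chosen on these libraries, so the sums describe the size of the change and do not test it. In bulk leaf RNA fewer cells of a type and less RNA per cell cannot be told apart.

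The water-sprayed libraries entered the contrast only through the filter, the scaling and the estimate of the spread, not through the group means compared. The genes called higher with LRM held 10.4%, 8.75% and 7.09% of the counts in drought_water, against 7.77%, 6.11% and 6.20% in irrigated_water. The genes called lower held 39.1%, 40.4% and 43.6% in drought_water, against 41.4%, 45.9% and 46.0% in irrigated_water. In both sets the water groups overlapped, through drought_water replicate 3 and irrigated_water replicate 1. The LRM groups were far apart, but the genes were called on that separation. The gaps under the LRM and water sprays are therefore not a like comparison.

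**Figure D4:**
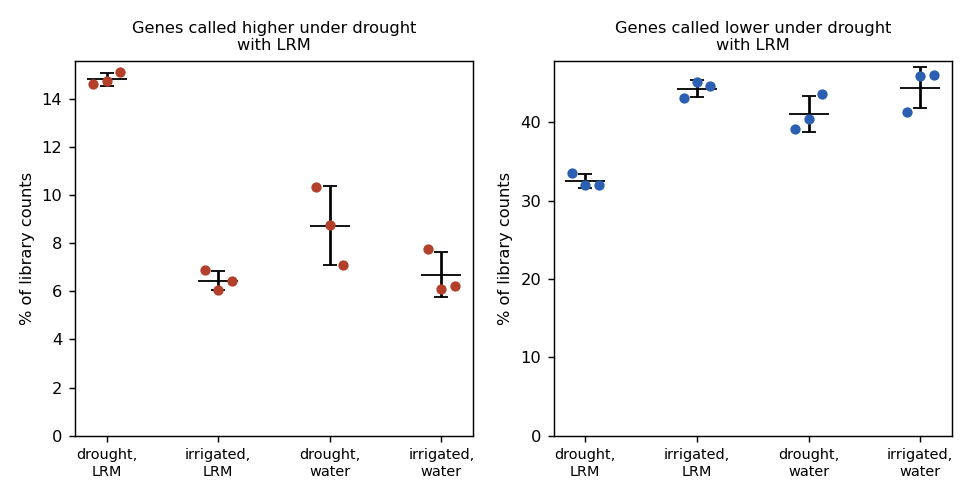
Points give the percentage of each library's counts held by the 4949 genes called higher (left) and the 4921 called lower (right) under drought with LRM, and bars the mean and SD of 3 libraries per group. Drought_LRM stands at 14.8% ± 0.26 and irrigated_LRM at 6.45% ± 0.41 on the left, with drought_water between them at 8.73% ± 1.63.

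Relative to the irrigated_LRM mean, the median gene called higher stood at 0.85, 0.77 and 0.78 on the log2 scale of CPM + 0.5 in drought_LRM replicates 1, 2 and 3. The median gene called lower stood at -0.68, -0.66 and -0.67. These genes were called on the same libraries, which favours genes in which the 3 were alike. In TMM-scaled CPM replicate 1 was the highest of the 3 in 47.3% of the genes called higher, replicate 2 in 30.4% and replicate 3 in 22.3%. By the share of library counts that these genes held, replicate 3 was the highest at 15.1% and replicate 1 the lowest at 14.6%. The order of the replicates thus depends on the measure. Over genes averaging at least 5 CPM, the median SD between replicates was 0.15 in drought_LRM and 0.12 in irrigated_LRM, on the scale of log2(CPM + 1). On the scale of log2(CPM + 0.5), 163 tested genes differed more than 4-fold among the drought_LRM libraries and 79 among the irrigated_LRM libraries, and 10 of the genes called higher were among the 163.

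Larger responses with LRM went with larger responses in water-sprayed leaves, in the same direction. Medians were taken over called genes that had counts in all 4 groups. The 2610 rises under 2-fold had a median log2 change of 0.63 with LRM and 0.20 with water. The 1414 rises of 2 to 4-fold had medians of 1.36 with LRM and 0.50 with water, and those of 4 to 8-fold, 412 genes, of 2.41 and 0.89. In the 350 rises over 8-fold the medians were 4.01 with LRM and 1.85 with water, and 96.9% of these genes had the same sign with water.

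The falls showed smaller changes with water. The 1199 falls of 2 to 4-fold had a median log2 change of -1.26 with LRM and -0.35 with water, and the 99 falls over 8-fold had medians of -3.77 and -0.95. As the genes were picked for their change with LRM, a smaller median with water follows in part from the choice, and these medians alone do not show that the responses differ. Of the rises over 8-fold, 159 of 512 were also called with water, and of the falls over 8-fold 7 of 175. Over all sizes these were 397 of 4949 and 43 of 4921, beside 475 (0.83%) of all tested genes. The 475 were mostly rises, which led in every abundance class, with 177 higher and 19 lower from 5 to 20 CPM. The pooled 0.83% is therefore too high a yardstick for the 43 falls. The falls over 8-fold were rarer, with a median of 0.45 CPM beside 1.18 for the rises. Under 1 CPM the water contrast called 21 genes higher and 1 lower, so the counts for rises and falls are not like for like. The sign was the same with water in 92.6% of the 512 and 85.1% of the 175. It was also the same in 87.3% of the rises and 86.9% of the falls under 2-fold. The share over all tested genes is not given here.

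The difference between the drought responses was tested as an interaction, the drought change with LRM minus that with water. edgeR called 487 genes, 0.851% of those tested. Among the genes called higher with LRM 267 had a called interaction, 49 of them in the class over 8-fold. Among the genes called lower 217 did, with 40 in the class over 8-fold and 102 in that of 2 to 4-fold. Interactions of either sign were counted. The interaction contains the same drought_LRM minus irrigated_LRM difference, so calls shared by both tests follow in large part from that. The count of 487 moved by over 1.5 times on the omission of each of the 12 libraries, between 20 without irrigated_water replicate 2 and 1279 without drought_water replicate 1.

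The genes named below had the largest rises and falls in mean CPM, a rule that favours abundant transcripts. They were taken from called genes with a fitted change of at least 2-fold and no overlap of the LRM groups. Traes_5DS_E8892706A, on the short arm of chromosome 5D, had 2561, 2262 and 3411 CPM in drought_LRM, against 1465, 866 and 1402 CPM in irrigated_LRM. Its log2 change was 1.14 with an SE of 0.23 (adjusted p = 0.0034 by edgeR). In the water-sprayed leaves it had 2913, 2074 and 1692 CPM under drought, against 2427, 1729 and 1888 CPM under irrigation, so that the drought_LRM libraries overlapped those of irrigated_water. Its level in irrigated_LRM differed from that in irrigated_water by a log2 value of -0.70 with an SE of 0.23 (adjusted p = 0.44 by edgeR). A change beyond 2-fold was not called by glmTreat (adjusted p = 1), and the interaction of 0.998 (SE 0.323) did not pass its test (edgeR adjusted p = 0.177).

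Traes_1DL_BFD641AD9, on the long arm of chromosome 1D, had 1972, 1946 and 1682 CPM in drought_LRM, against 606, 690 and 565 CPM in irrigated_LRM. Its log2 change of 1.59, with an SE of 0.17 (adjusted p = 2.69e-05 by edgeR), also passed the test for a change beyond 2-fold (glmTreat adjusted p = 0.0227). With water it had 1345, 1043 and 1013 CPM under drought, against 503, 626 and 849 CPM under irrigation, a rise of 0.78 (SE 0.17, edgeR adjusted p = 0.0477), close to the threshold and not repeated here under other settings. The groups did not overlap under either spray, and the 3 drought_LRM libraries lay above every other library. The interaction was 0.81 (SE 0.24, edgeR adjusted p = 0.134). Per unit of length it was the most highly expressed of the 4 named genes in drought_LRM, at 1628 ± 67.0 FPKM, against 486 ± 51.5 FPKM in irrigated_LRM (SD, n = 3 each).

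Traes_1BL_22EDF8650, on the long arm of chromosome 1B, had the largest fall in mean CPM under this rule. It had 295, 351 and 415 CPM in drought_LRM, against 1633, 1543 and 1793 CPM in irrigated_LRM. The log2 change was -2.23 (SE 0.19, edgeR adjusted p = 4.63e-06), and it exceeded 2-fold by glmTreat (adjusted p = 0.000185). By abundance it ranked 319 of the tested genes in drought_LRM and 98 in irrigated_LRM. In water-sprayed leaves the levels were 764, 1175 and 1365 CPM under drought, against 1846, 1901 and 1582 CPM under irrigation, which gave -0.69 on the log2 scale with an SE of 0.18 (adjusted p = 0.116 by edgeR). Every drought library lay below every irrigated one, and the drought_LRM libraries lay below the drought_water ones. Its interaction of -1.54 (SE 0.25) passed the test (edgeR adjusted p = 0.0224), but not on the omission of any irrigated_LRM library, of irrigated_water replicate 2, of drought_LRM replicate 2 or of drought_water replicate 2, where the adjusted p was up to 0.0763.

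Traes_6AS_F8D06BEC8, on the short arm of chromosome 6A, had 823, 785 and 570 CPM in drought_LRM, against 1534, 1766 and 1809 CPM in irrigated_LRM. The log2 change was -1.23 (SE 0.21, edgeR adjusted p = 0.000944), and glmTreat did not call it beyond 2-fold (adjusted p = 0.912). With water it had 1399, 1446 and 1774 CPM under drought, against 1018, 1852 and 1932 CPM under irrigation. These groups overlapped, and the change of -0.06 (SE 0.20) did not pass the test (edgeR adjusted p = 0.961). The interaction of -1.17 (SE 0.29) did not pass it either (edgeR adjusted p = 0.0743).

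**Figure D5:**
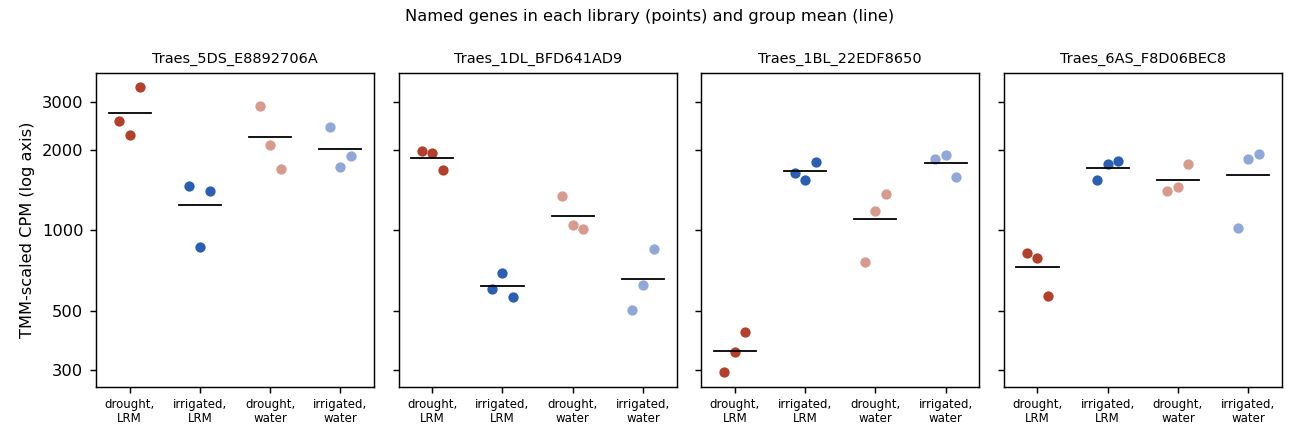
Points give the TMM-scaled CPM of the 4 named genes in each of the 12 libraries, on a log axis, and lines the group means. Traes_1DL_BFD641AD9 and Traes_1BL_22EDF8650 have drought_water between drought_LRM and the irrigated groups, and Traes_6AS_F8D06BEC8 has its 3 lowest values in drought_LRM, at 823 CPM or less, followed by irrigated_water replicate 1 at 1018 CPM.

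Called genes were spread over all 21 chromosomes. The share of tested genes called higher ran from 7.07% on 4D to 10.01% on 1D, and the share called lower from 6.02% on 3D to 10.1% on 5B. More genes were called higher than lower on 11 chromosomes and fewer on 10. Among changes beyond 2-fold by glmTreat, in contrast, rises outnumbered falls on each of the 21 chromosomes. The chromosome is the one in the identifier, and no difference between chromosomes was tested.

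Gene length, as implied by the ratio of counts to FPKM, went with small differences. The tested genes with an implied length were split by it into 5 classes of equal size. In the shortest class 7.88% were called higher and 8.66% lower, and in the longest class 9.53% and 7.79%. The median log2 change was -0.03 in the shortest class and 0.02 in the longest, and the part of length in the calls was not tested. Identifiers that share a stem and may share reads had little weight in the counts, as the 9870 called identifiers belonged to 9813 stems.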

How the data were processed

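Counts and FPKM were used as the authors deposited them. The deposited count table gives whole-number read counts for 99386 gene identifiers in 12 libraries, with totals of 17541561 to 47305447. The second deposited table has no unit in its header, and its values were judged to be FPKM. Of 555204 cells with over 20 counts, 99.8% lay within 5% of the value implied by the count, the library total and 1 length per gene. That length was the median taken from the same cells. The agreement therefore shows scaling for depth, and cannot show that the constant of each gene is its length. Among tested genes the implied lengths ran from 100 to 17308 bases. In that second table, 210 cells at about 1000 times the implied value were divided by 1000. FPKM served for levels per length, implied lengths and alternatives. FastQC, HISAT2, StringTie and DESeq2 are named in the submitters' processing notes, without roles. The sources used here do not name the build, the annotation, the strand setting or the handling of multi-mapping reads.

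Genes were tested with edgeR 4.0.16 in R 4.3.3 (quasi-likelihood test, TMM, filterByExpr) in 1 fit of 4 group means over all 12 libraries. glmTreat used a log2 threshold of 1. Alternatives used DESeq2 1.42.0 and limma 3.58.1. Adjusted p-values cover all 57226 genes tested, and SEs derive from the F value. The procedure was tested on simulated data with far fewer changed genes than were called here. It called 6.12% of planted 1.5-fold changes, 32% of 2-fold, 79.2% of 4-fold and 90% of 8-fold changes. Of its 108 calls 6 were false. Correlations between same-numbered libraries' deviations from their group means were 0.03, -0.01 and 0.05, so the numbers were not taken to pair the libraries. The members, classes and tests were chosen with earlier results of these data known. The rule for named genes took the 2 largest rises and 2 largest falls in mean CPM, among called genes with a log2 change of at least 1 in size, no overlap of groups and 1 identifier per stem. Pathway lists could not be applied, as the files pair no identifier with a name. Counts of 0 and their limits cover counting error only.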

Additional observations from a re-analysis of the deposited data

Results flagged for a closer look

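The drought response with LRM was called different from that with water in 487 genes by the interaction test of edgeR, and in 1 of the 4 named genes. The count is unstable: it ran from 20 to 1738 over 21 alternatives and stayed within 1.5 times of 487 in 5 of them. Traes_1BL_22EDF8650 had a log2 interaction of -1.54 with an SE of 0.25 (adjusted p = 0.0224 by edgeR), and over its alternatives the value ran from -1.74 to -1.36 and the adjusted p up to 0.0763. It passed the threshold in 13 of 21 alternatives. The cause of the difference was not tested.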

How the results depend on the processing

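Of 16 alternatives, 4 moved the number of genes called lower by over 1.5 times from 4921: it was 2937 with library totals, and with limma 3090 on log2(FPKM + 1), 3099 on log2(FPKM + 0.1) and 2836 without a filter. The number of all calls stayed between 6745 and 10195 over these alternatives, and 6745 to 8463 with 1 LRM library left out. Omissions of LRM libraries gave 3445 to 4478 genes higher, 3300 to 4181 lower and 807 to 1025 beyond 2-fold by glmTreat. Of the 9870 calls, 5432 were made in all 6 of these omissions, and 4624 under all 16 alternatives. All 4 named genes kept the direction and the call of their drought change with LRM in 16 of 16 alternatives. The interaction count of 487 was 892 with a mean of at least 1 CPM, 837 by limma on log2(FPKM + 1), 1738 by DESeq2 and 20 to 1279 with 1 library left out. The interaction of Traes_1DL_BFD641AD9 passed the threshold in 2 alternatives and that of Traes_6AS_F8D06BEC8 in 3. With replicate number as a block, edgeR called 9669 genes for drought with LRM and 811 for the interaction, although the numbers were not found to pair the libraries. The causes were not tested.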
